A study of Ovis aries with 18 samples.

Results

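The imprinted DLK1-DIO3 region of sheep encodes a large group of microRNAs (miRNAs), short RNAs that lower the output of messenger RNAs they pair with. They were followed here in uterine lumen vesicles and in the endometrium, the inner lining of the uterus. Members were all rows named oar-miR- with 1 of 48 numbers assigned to the region, whatever the letter or arm. An arm, 5p or 3p, is the side of the hairpin precursor from which a mature miRNA is cut. The rule found 101 of the 761 rows of the endometrium table and 30 rows of the vesicle table, which has 465 other rows. All 30 vesicle members were also endometrium members. No row was named miR-300, miR-656 or miR-889.

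The animals were ovariectomized ewes (Ovis aries), which lack ovarian hormones of their own. Both treatments included 50 mg of progesterone (P4) injected daily for 14 days, and in P4+RU486 50 mg of RU486 was added daily from day 8 to day 14. RU486 (mifepristone) blocks the progesterone receptor. Each treatment was given to 5 ewes, and no group without P4 was among the samples. Small RNA was sequenced from endometrium dissected off the uterus (5 libraries per treatment) and from extracellular vesicles of a saline flush of the uterine lumen (4 libraries per treatment). Each ewe received 1 treatment, so the libraries of a group came from separate animals. By the labels, every ewe with a vesicle library also gave an endometrium library, so tissue and vesicles are not independent sets of animals.

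As background, the region carries genes expressed from 1 parental chromosome only. The protein-coding genes DLK1, RTL1 and DIO3 are read from the paternal copy, and the noncoding RNAs and miRNAs from the maternal copy. Some of the miRNAs lie in a transcript antisense to RTL1, a retrotransposon-derived gene needed in the placenta, and pair fully with its messenger. Most of the others form a long cluster downstream, processed from a host transcript known as MIRG. In sheep the callipyge mutation of this region causes overgrown hindquarter muscle. These miRNAs are known mainly from embryo, placenta, brain, muscle and other mesenchymal tissue.

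The members covered every miRNA gene annotated in the region. RefSeq genes of the assembly ARS-UI_Ramb_v3.0, which is not the build of the files, were used for names and gene order only. There 55 miRNA genes lie between DLK1 and DIO3, and each of the 55 had at least 1 row in the endometrium table. From the DLK1 end, the order begins with MIR493 and MIR665. Then come 5 genes within the span of RTL1, which are MIR431, MIR433, MIR127, MIR432 and MIR136. MIR370 follows, then a block of 32 annotated snoRNA genes with MIR3955 near its far end, and then the MIRG cluster from MIR379 to MIR323C. The mature sequences were not analysed here.

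Few of the members listed in tissue were also listed in vesicles. Of the 101 endometrium members 30 (29.7%) were also listed in vesicles, and 71 were not. Of the 51 other endometrium rows with a sheep name 50 (98.0%) were listed in vesicles, all but miR-181a-1. Of the 609 predicted loci, which carry an identifier in place of a miRNA name, 408 (67.0%) were. The vesicle table lists rows down to 1 read over all 8 libraries (71 rows have exactly 1), and what kept a row off the table is not stated. The levels of these rows in tissue were not used here, so their part in this difference was not tested, and the rows were not matched for abundance. Sequencing depth was not compared between tissue and vesicles either. The contrast describes rows, which are not replicates.

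**Figure D1:**
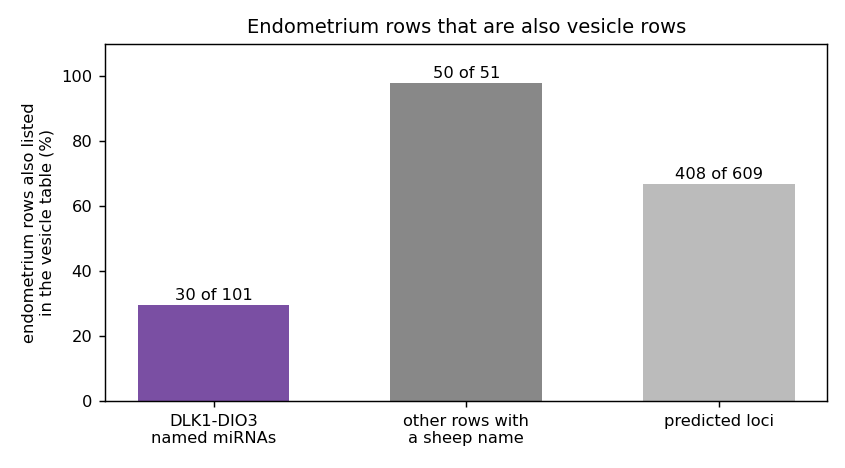
Share of endometrium rows that are also listed in the vesicle table, in percent, for the DLK1-DIO3 named miRNAs, the other rows with a sheep name and the predicted loci, with the counts above each bar. The named miRNAs of the region have the lowest bar, 30 of 101.

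The unlisted members were spread along the whole region. By gene, 25 of 55 had a row in vesicles and 30 had none. Of the 10 rows from MIR493 to MIR136, 5 were listed, and of the 89 rows of the MIRG side (MIR3955 included), 23 were listed. Both arms of miR-370, encoded between these groups, were listed. The longest run of neighbouring genes without a vesicle row was 8 genes (14 endometrium rows), from MIR376E to MIR3956. It holds the complete miR-376 family, whose precursors are known targets of adenosine-to-inosine RNA editing, with 5 genes and 9 rows. A second run of 4 genes went from MIR496 to MIR3957. Where both arms of a gene were in the endometrium table (46 genes), vesicles listed both arms of 5 genes, 1 arm of 17 and neither arm of 24.

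The members that did reach the vesicle table had very few reads. Whole reads could be recovered from the deposited values, and the vesicle libraries held 97202 to 1062646 reads in listed rows. All 30 members together had 218 reads over the 8 libraries. The median member had 3 reads in total, against 18 for the median vesicle row. Levels are in normalized CPM (reads scaled by the authors), a scaling that did not follow the reads in listed rows alone. In the P4 libraries P01 (97202 reads) and P04 (97593 reads), 1 read was worth 7.86 and 9.54 of these units. Depending on the library, 1 read was worth 1.10 to 10.4 units. A count of 0 therefore allows up to 3.30 to 31.3 normalized CPM (3 reads). Floors and intervals cover counting error only, since reads lacking molecular identifiers cannot be taken as separate molecules.

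**Figure D2:**
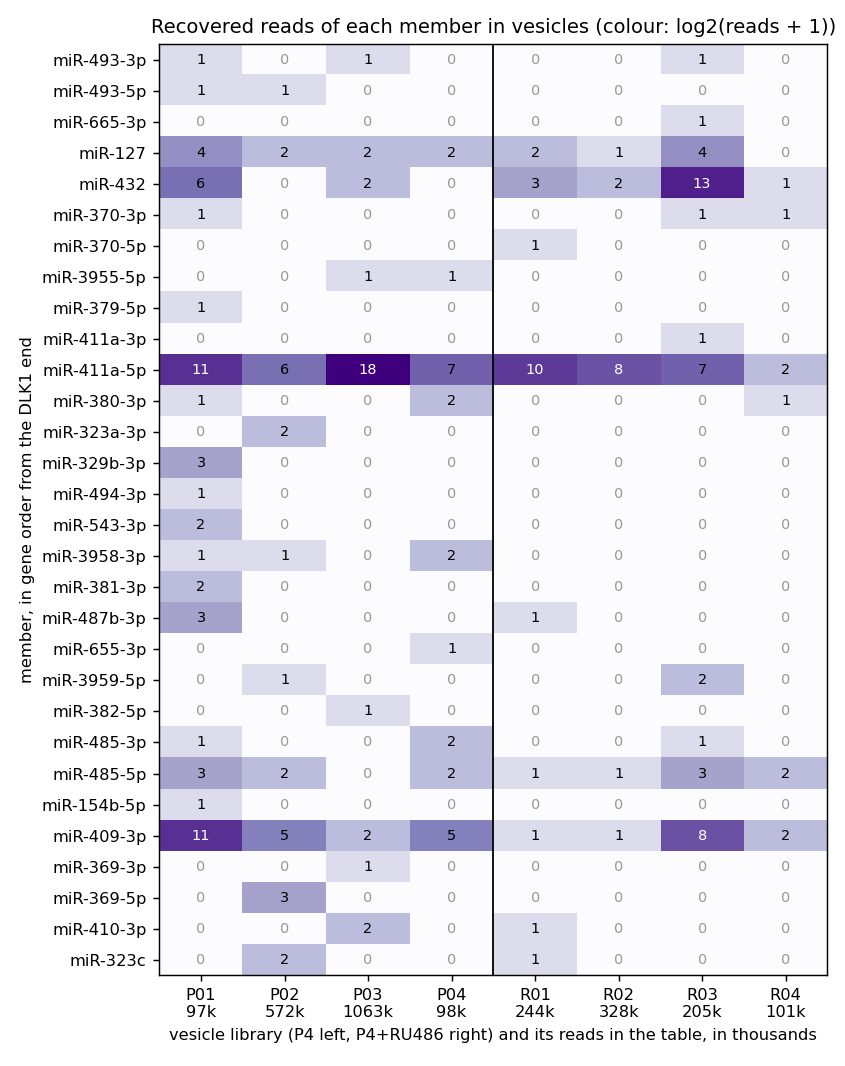
Whole reads of each of the 30 vesicle members (rows, in gene order) in each of the 8 vesicle libraries (columns, P4 left of the line and P4+RU486 right of it), with colour on a log2(reads + 1) scale. Only miR-411a-5p and miR-409-3p have reads in all 8 libraries, and most cells are 0.

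Of the 218 reads, 162 (74.3%) belonged to 5 members, which were the only ones with a mean of at least 10 normalized CPM. These were miR-411a-5p with 69 reads, miR-409-3p with 35, miR-432 with 27, miR-127 with 17 and miR-485-5p with 14. miR-411a-5p, the most abundant, had a mean of 38.3 normalized CPM over the 8 libraries, and 159 vesicle rows had a higher mean. The lowest mean that reached the limit was 10.9 (miR-127), and the highest below it was 4.67 (miR-380-3p).

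The share of reads held by the members differed widely between ewes. In P4 it was 0.0556% in library P01 (95% exact Clopper-Pearson interval 0.0417 to 0.0725%, 54 reads), 0.00437% in P02 (0.00283 to 0.00645%, 25 reads), 0.00282% in P03 (0.00190 to 0.00403%, 30 reads) and 0.0246% in P04 (0.0158 to 0.0366%, 24 reads). In P4+RU486 it was 0.00859% in R01 (0.00532 to 0.0131%, 21 reads), 0.00396% in R02 (0.00211 to 0.00677%, 13 reads), 0.0204% in R03 (0.0147 to 0.0276%, 42 reads) and 0.00889% in R04 (0.00407 to 0.0169%, 9 reads). P01, P04 and R03 were high, the other 5 libraries were low, and the treatments overlapped. The P4 mean was 0.0218% ± 0.0246 (SD, n = 4), and without P01 it was 0.0106% ± 0.0121 (SD, n = 3). The P4+RU486 mean was 0.0105% ± 0.00702 (SD, n = 4). The distance between the means was smaller than the SD in P4, and without P01 the means were nearly equal.

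The deepest library was not the one with the most members. P03, with 1062646 reads, had reads of 9 members, and P01, with 97202 reads, had reads of 18. Scaled down to 97202 reads each, P02 would be expected to show 3.46 members, P03 1.89, P04 8.99, R01 4.80, R02 2.33, R03 7.85 and R04 5.88, against 18 in P01. For all vesicle rows the same scaling gave 241 (P03) to 283 (P01), so P01 differed far more in members than in rows overall. The rows overall had more reads than the members (a median of 18 against 3). Other rows with as few reads were not compared, so this is not shown to be particular to the members.

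Of the 2 stromal rows, 1 was high in the same libraries. miR-199a-3p, a miRNA of fibroblasts and other stroma, was at 849 normalized CPM in P01, 579 in R03 and 305 in P04, and at 81.3 to 194 in the other 5 libraries. The list for stroma had 2 rows in vesicles, and its other row, with the miR-214 seed, was at 0 in 5 libraries including P01 and P04 and reached 14.3 in R03. A seed is the short 5′ stretch of a miRNA that selects targets, and a shared seed is not an identity. The 6 rows of the epithelial list (miR-200 family and the miR-205 seed) summed to 8965 in P01 and to 15180 to 35369 in the other libraries. The 3 rows of the leukocyte list summed to 13883 in P01 and to 1645 to 4505 elsewhere, mostly from miR-150 (13655 in P01). Its other rows were not highest in P01, with the miR-155 seed at 181 there against 266 in P02 and the miR-142b seed at 47.1 against 86.3 in R01. The erythroid row, with the miR-486 seed, was highest in P04 (7365) and R03 (5427). The 2 rows of the muscle list (miR-143 and the miR-145 seed) summed to 13192 in P01, 10828 in P04 and 9730 in R03. In the other 5 libraries they summed to 11444 to 16531. The row of the liver or plasma list, with the miR-885 seed, was at 416 in P01, 343 in P04 and 66.9 in R03. In the other libraries it was at 62.6 to 270. The 4 rows of the ciliated epithelium list summed to 14229 in P01, 10637 in P04 and 11174 in R03, and to 14349 to 19140 elsewhere. No row matched the endothelial list. The part of these cell types in the members' share was not tested, and in such samples fewer vesicles of a cell type and less RNA per vesicle cannot be told apart.

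**Figure D3:**
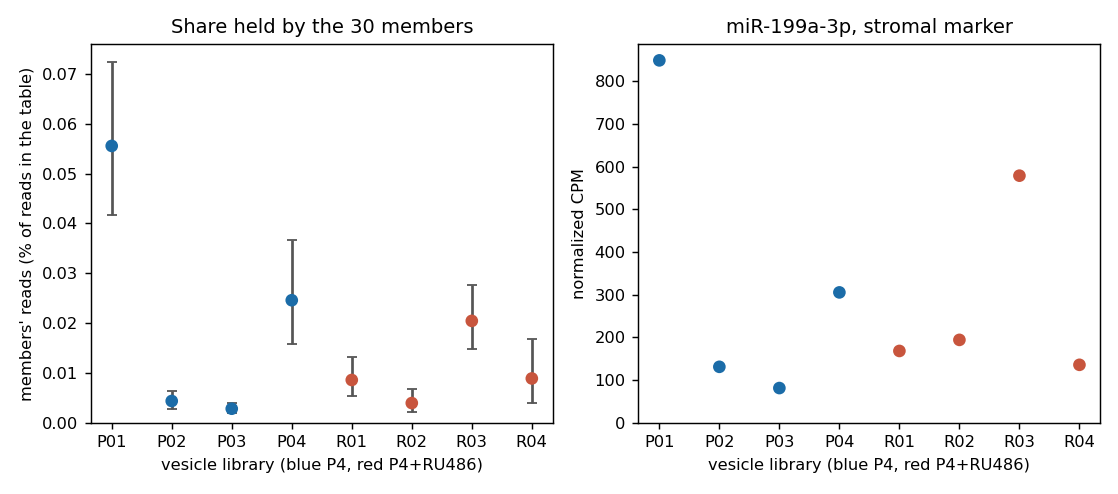
Left, reads of the 30 members as a percent of the reads in each vesicle library (bars: 95% exact binomial interval). Right, normalized CPM of the stromal miR-199a-3p in the same libraries (blue P4, red P4+RU486), where P01, R03 and P04 are the 3 highest libraries in both panels. The other stromal row, with the miR-214 seed, is not drawn and was at 0 in P01 and P04.

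RU486 during the second week was then compared with P4 alone for each tested member in vesicles. None of the 5 passed limma with Benjamini-Hochberg adjustment over 229 rows, where 0.437% of rows were called (1 row). Nor did any pass with edgeR (0.437% of rows called), and DESeq2 (2.18% called) gave no adjusted p for them. No member had an unadjusted p under 0.05 in limma (14.4% of rows had one), edgeR or DESeq2. In all 5 members the libraries of both treatments overlapped, where they did not overlap in 10% of rows. Differences are given as P4+RU486 minus P4 of log2(normalized CPM + 1), a scale that can understate or overstate changes of rows with so few reads.

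On the RTL1-antisense side, miR-127, which is fully complementary to the RTL1 messenger, was at 31.4, 3.74, 2.20 and 19.1 normalized CPM in P01 to P04. In R01 to R04 it was at 8.63, 3.13, 19.1 and 0. P01, P04 and R03 were again the high libraries, and the treatments overlapped. The log2 difference was -0.91 (SE 1.23, 95% interval -3.59 to 1.78, limma adjusted p = 0.814).

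miR-432, from the next miRNA gene on that side, was at 47.1, 0, 2.20 and 0 in P01 to P04. In R01 to R04 it was at 12.9, 6.26, 62.2 and 10.4. It had a read in all 4 P4+RU486 libraries and in 2 of 4 P4 libraries, yet the P4 library P01 was second only to R03. Its P4 mean was 12.3 ± 23.2 (SD, n = 4), and its P4+RU486 mean was 1.86 times as high, at 22.95 ± 26.3 (SD, n = 4). The fitted log2 difference of 2.22 (SE 1.35, 95% interval -0.72 to 5.17, limma adjusted p = 0.494) was larger than that ratio, since 2 P4 libraries had no read. Without P01 it was 3.48 (adjusted p = 0.232), the P4 mean then being 0.733.

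In the MIRG cluster, miR-411a-5p, encoded next to miR-379 at the start of the cluster, was at 86.4, 11.2, 19.8 and 66.8 in P01 to P04. In R01 to R04 it was at 43.1, 25.1, 33.5 and 20.9. The P4 libraries lay on both sides of the P4+RU486 libraries, which were closer to each other (30.6 ± 9.84, SD, n = 4, against 46.1 ± 36.3, SD, n = 4). The log2 difference was -0.20 (SE 0.68, 95% interval -1.68 to 1.28, limma adjusted p = 0.913). Its sign turned without P01 (0.24) or without P04 (0.12).

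miR-409-3p, from near the far end of the cluster, was at 86.4, 9.36, 2.20 and 47.7 in P01 to P04. In R01 to R04 it was at 4.31, 3.13, 38.3 and 20.9. P01 was the highest and R03 the highest of its treatment. The log2 difference was -0.73 (SE 1.13, 95% interval -3.19 to 1.74, limma adjusted p = 0.853), and with 1 library left out it ranged from -1.59 (without P03) to 0.00 (without P01).

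miR-485-5p, a brain-enriched miRNA in the second part of the cluster, was at 23.6, 3.74, 0 and 19.1 in P01 to P04. In R01 to R04 it was at 4.31, 3.13, 14.3 and 20.9. The means were close, at 11.6 ± 11.5 (SD, n = 4) and 10.7 ± 8.47 (SD, n = 4). The log2 difference was 0.41 (SE 1.199, 95% interval -2.20 to 3.03, limma adjusted p = 0.913), with a sign opposite to that of the means. The intervals of these members spanned several log2 units, so that even large differences could not be told from the spread between these libraries.

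**Figure D4:**
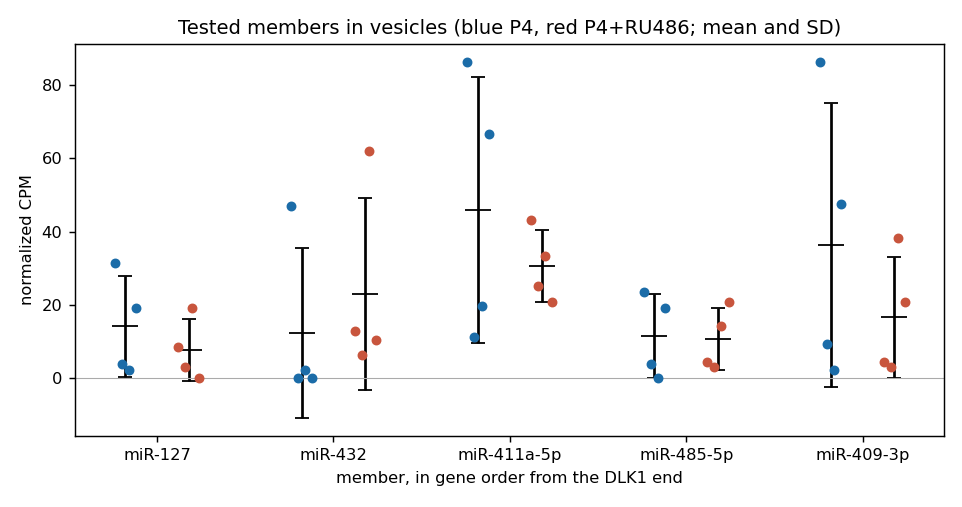
Normalized CPM of the 5 tested members in each vesicle library (points, blue P4 and red P4+RU486), with the mean (dash) and SD (bars) of each group. The treatments overlap for every member, and P01 holds the highest P4 value of each.

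The remaining 25 vesicle members had 1 to 4 reads each over the 8 libraries, 56 in all. They had 43 reads in P4 libraries and 13 in P4+RU486 libraries, which held 1829232 and 879528 reads in listed rows. Of the 25, 14 had reads in P4 alone, 3 in P4+RU486 alone and 8 in both. The same split over other rows with so few reads is not given, so no treatment difference is read from it. P01 had a read of 13 of the 25, and for 6 it was the only library with one. These 6 were miR-379-5p, miR-329b-3p, miR-494-3p, miR-543-3p, miR-381-3p and miR-154b-5p, with 1 to 3 reads each. Of the low members, miR-3958-3p was seen in the most P4 libraries, with 1 read in P01, 1 in P02, 2 in P04 and none in any P4+RU486 library. Over the P4+RU486 libraries 0 reads allow a share of up to 0.000341% (3 reads). Without a filter its limma p was 0.0346 unadjusted and 0.543 adjusted over all rows. In that fit 0 of 30 members were called, against 0.202% of all rows. There 9 members were higher and 21 lower in P4+RU486, against 237 higher and 258 lower over all rows (median -0.62 against -0.03). As 25 of these 30 members had only 1 to 4 reads, many of these signs rest on single reads. All rows are not matched to them, with a median of 18 reads against 3. No treatment difference is read from these counts either.

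In the authors' deposited table for vesicles no member was called, where 1.82% of rows were (9 rows). Adjusted p-values of members there lay between 0.46 and 1. A positive fold in the authors' deposited table for vesicles is higher in P4. It gave folds of -7.90 for miR-432, 1.72 for miR-409-3p, -1.32 for miR-411a-5p, 1.13 for miR-127 and -1.06 for miR-485-5p. For miR-411a-5p and miR-485-5p this sign is opposite to that of the group means.

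In the endometrium, 3 of the 101 members were called in the authors' deposited table (adjusted p under 0.05), all with a positive fold, where 1.18% of its 761 rows were called in either direction and 0.92% with a positive fold. Which treatment stands in the numerator is not stated there, and signs are printed as coded. miR-431, which lies within RTL1 on the antisense strand, stood at 4.86 in the authors' deposited table (adjusted p = 0.00208). miR-665-5p and miR-665-3p, both arms of its neighbour toward DLK1, had folds of 3.18 and 1.62 in the authors' deposited table (adjusted p = 0.00686 and 0.0097). miR-370-3p followed at 1.52 with an adjusted p of 0.075 in the authors' deposited table. In vesicles miR-431 and miR-665-5p were not listed, and miR-665-3p had 1 read, in R03.

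These calls lay on 2 adjacent genes and were not shared by the genes beside them. In the authors' deposited table the folds were -1.01 and -1.10 for the arms of miR-493, on the DLK1 side of miR-665. On the other side they were 1.10 and -3.64 for miR-433-3p and miR-433-5p, 1.03 for miR-127, -1.28 for miR-432 and -1.31 for miR-136, with adjusted p-values of 0.551 to 0.990. Whether the fold of miR-431 differed from those of its neighbours was not tested. miR-431, miR-433, miR-127, miR-432 and miR-136 share 1 antisense transcript, as background.

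**Figure D5:**
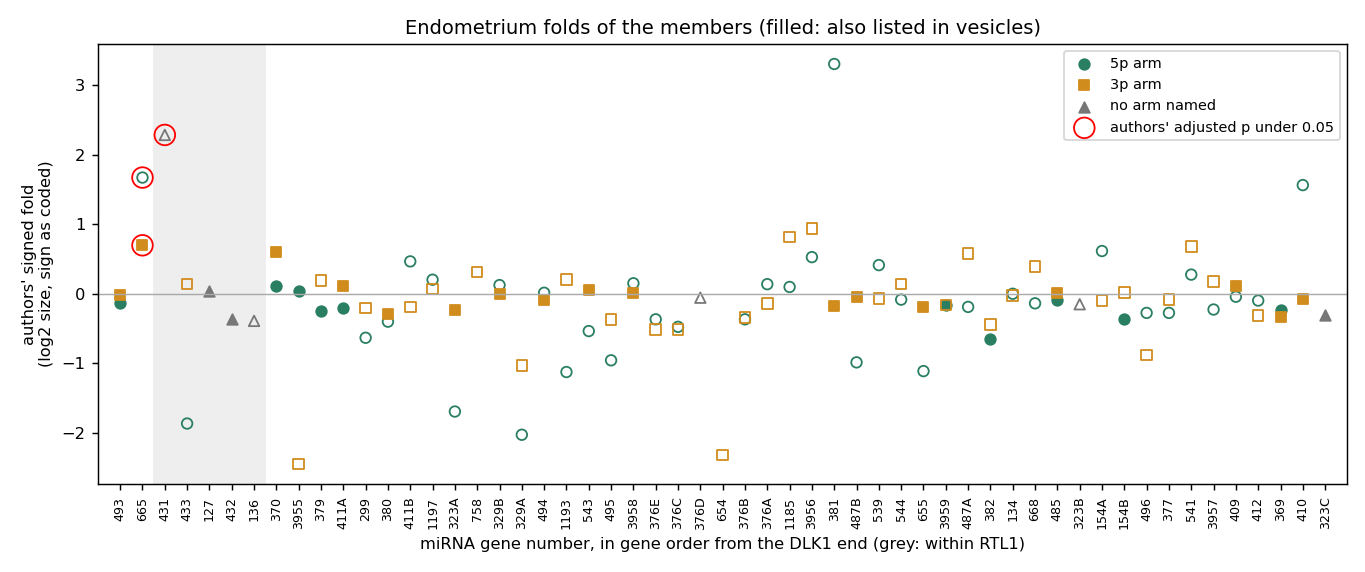
Authors' signed folds of the 101 endometrium members (log2 of the fold size with the sign as coded) against gene order from the DLK1 end, by arm, filled where the member is also listed in vesicles. Red rings mark the 3 members with an adjusted p under 0.05, on the adjacent genes MIR665 and MIR431, and most other points lie near 0.

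The MIRG cluster showed no call. Of its 89 rows (MIR3955 included) 57 had a negative and 32 a positive fold in the authors' deposited table, with a median signed log2 fold of -0.10. Over all 761 rows that median was -0.03, with 397 negative and 364 positive. The lowest adjusted p of the cluster in the authors' deposited table was 0.177, for miR-381-5p with a fold of 9.85. The other arm of that gene, miR-381-3p, had a fold of -1.13. Folds were small for most members, and 78 of 101 (77.2%) were under 1.5 in size, against 70.2% of all rows. Over 2 in size were 12 members, against 118 of all 761 rows. These 12 were all unlisted in vesicles, and a link between fold size and listing was not tested.

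Related members had folds of like and unlike sign in the authors' deposited table. In the miR-376 family 8 of 9 rows were negative (-1.43 to 1.10, lowest adjusted p 0.448). All 4 rows numbered miR-323 were negative (-3.23 to -1.11, lowest adjusted p 0.663). Of the 4 rows numbered miR-329, 3 were negative (-4.07 to 1.09). Rows of miR-154 and miR-411, with 4 each, were split evenly. Of the 46 genes with both arms, 24 had folds of 1 sign (7 positive and 17 negative) and 22 had opposite signs. None of these rows passed, other than the arms of miR-665.

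Rows tied to the region by a shared seed alone were few. In vesicles 3 predicted loci had the seed of a member number, which does not place them in the region. The row 3_25383, with the miR-487a-5p seed, had 248 reads, more than all 30 members together. It was at 133.6, 59.9, 94.5 and 381.6 normalized CPM in P01 to P04 and at 121, 47.0, 71.7 and 157 in R01 to R04, so its highest library was P04 and not P01. Its log2 difference was -0.54 (SE 0.58, limma adjusted p = 0.774). The row JH921839.1_36755 is labelled with the seed of bovine miR-2392, and the human miRNA of that number is one of the region. This label does not place the row in the region. The row was at 94.3, 1.87, 0 and 0 in P01 to P04 and at 64.7, 18.8, 9.56 and 10.4 in R01 to R04. Its log2 difference was 2.29 (SE 1.42, limma adjusted p = 0.499). Of the miRNAs of other imprinted loci (miR-296, miR-298, miR-335, miR-483 and miR-675), only a row with the miR-335 seed was found, with 21 vesicle reads. Its endometrium fold was -1.12 in the authors' deposited table (adjusted p = 0.861). In the endometrium 5 predicted loci had the seed of a member number, 1 positive and 4 negative in the authors' deposited table, none of them called. Among them was 18_13469, with the miR-656 seed, at -1.09 in the authors' deposited table (adjusted p = 0.974).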

How the data were processed

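Small RNA libraries were made with an Illumina TruSeq kit, per the labels' protocols. Vesicles were taken from a 10 ml flush passed through a 0.22 µm filter, concentrated and isolated by size exclusion. The submitters' processing notes name cutadapt 1.11, the build Oar_v3.1 and edgeR. The aligner and the miRNA caller were not given in the sources used here. Vesicle values were deposited as a normalized signal. Whole reads were recovered for 100% of values in each column (tolerance 0.1 read). The authors' signed fold changes and adjusted p-values are used as deposited, per the file headers. For 199 of 229 rows the sign of the vesicle fold was that of P4 over P4+RU486. Column names give the treatment by initial letter, not the ewe. The 10 endometrium columns of values per library match no label and were not used, so no test was run on tissue and no level was compared between tables.

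The main test was limma 3.58.1 (trend, R 4.3.3) of log2(value + 1) on the 229 rows whose mean reached 10, with Benjamini-Hochberg adjustment over all of them and a threshold of 0.05. Alternatives were a pseudocount of 5, no filter, a mean of at least 50, library totals, edgeR 4.0.16 (quasi-likelihood) and DESeq2 1.42.0 on recovered reads, and leaving out each library. The code was tested on simulated data. Members and lists were chosen with earlier results of these data known. Members with a mean of at least 10 in vesicles, or an adjusted p under 0.05 in the authors' tables, are given in full.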

Additional observations from a re-analysis of the deposited data

Results flagged for a closer look

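miR-432 had 1 vesicle library far above the others in both treatments. P01 was at 47.14 normalized CPM (6 reads) where the other P4 libraries were at 0 to 2.20. R03 was at 62.16 (13 reads) where the other P4+RU486 libraries were at 6.26 to 12.9. In each case the gap to the next library exceeded the 95% limit of Dixon's ratio for 4 values (ratios of 0.953 and 0.881). For 4 normally distributed values such a gap arises in about 1 of 20 groups by chance, and 12 groups were examined. These values come from few reads scaled by unequal depth, so the rate for them is not known. Both libraries were also high in miR-199a-3p, but P04, the third highest in it (305 normalized CPM), had no read of miR-432. The other stromal row, with the miR-214 seed, was at 0 in P01 and at 14.3 in R03. The part of stroma in these values was not tested.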

How the results depend on the processing

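No member was called under any alternative that tested one (3 to 30 members); with a mean of at least 50 no member was left, and DESeq2 gave no adjusted p for any of the 5. Counts of called vesicle rows ranged from 0 to 2 with 1 library left out, against 1, and DESeq2 called 5. miR-432 kept its direction in all 14 alternatives that tested it, from 0.94 to 3.48 on the log2 scale. miR-127 kept its direction in the 10 that tested it, from -1.45 to -0.10. It fell below the filter without P01, without P04, without R03 and without the 3 libraries with the fewest reads. Its direction in those settings was therefore not tested. Without P01, P04 and R04, the 3 libraries with the fewest reads (an alternative chosen after seeing the data), miR-411a-5p turned to 1.10 and miR-409-3p to 0.72. miR-409-3p ranged from -1.59 to 0.00 and miR-411a-5p from -0.71 to 0.24 with 1 library left out. miR-485-5p turned to -0.10 with DESeq2 and to -0.52 without P03, and ranged up to 0.80 with 1 library left out. It fell below the filter without P01, without P04, without R04 and without all 3 of these. The mean share of members' reads ranged from 0.0106 to 0.0282% in P4 and from 0.00715 to 0.0126% in P4+RU486 with 1 library left out. No paired analysis was possible because the vesicle columns carry no ewe and the treatments were given to different ewes. Depth sets a limit, since 1 read equals 10.4 normalized CPM in R04 and 7.86 in P01, and so does the spread between 4 ewes per treatment; their parts were not separated.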
